A study of Schizosaccharomyces pombe with 87 samples.

Results

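Small nucleolar RNA genes were described across the annotated genome of fission yeast, Schizosaccharomyces pombe. The set comprised every gene record on chromosomes I, II and III of the authors' all-chromosomes annotation whose identifier begins with SPSNORNA, which gave 53 genes of the 12630 on these chromosomes. The series itself used chromatin immunoprecipitation with sequencing to map di- and trimethylated lysine 9 of histone H3, marks of heterochromatin, in 87 libraries of log-phase cultures grown at 32 °C. An ectopic strain set held 56 libraries of wild type, swi6-delta, swi6-delta mst2-delta, swi6-delta set1-delta, swi6-delta mst2-delta set1-delta, mst2-delta set1-delta and clr4-delta cells. An endogenous strain set held 31 libraries of the first 5 of these genotypes. The set1, mst2, clr4 and swi6 genes code for a pair of chromatin activators, the H3K9 methyltransferase and a protein that binds its mark. Of the 87 libraries, 48 came from immunoprecipitated DNA and 39 from input DNA. Both deposited files used here are genome annotations that list positions and leave the score column blank throughout. No library has a value here, no group was compared with another, and no test was run. Every number below is a position, a length, a count of annotated features or a property of the sequence, without replicates or sampling error.

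Small nucleolar RNAs (snoRNAs) are short non-coding RNAs that guide chemical modification of other RNAs, above all ribosomal RNA (rRNA). Box C/D snoRNAs carry a C box near the 5′ end and a D box near the 3′ end, bind fibrillarin, and direct methylation of the ribose. The rRNA base that is methylated is the one paired with the fifth snoRNA base upstream of a D box or of its internal copy, the D′ box. Box H/ACA snoRNAs fold into hairpins, end in an ACA box close to the 3′ end, and direct the conversion of uridine to pseudouridine by the enzyme dyskerin, called Cbf5 in yeasts. A few, such as U3, U14 and snR30, are needed in budding yeast for the cleavage of the rRNA precursor. Some snoRNAs are transcribed from their own promoters and others are cut out of the introns or longer transcripts that hold them.

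The sequences that carry the main features of the set are shown first, 5′ to 3′ on the strand of each gene. Both the DNA letters and the positions printed with them are from RefSeq (ASM294v3). All 53 identifiers were found there, each with a gene length equal to that in the deposited annotation. The first group shows the terminal boxes, with the C letters TGATGA and the D letters CTGA in capitals. These are snR40 at chrI:431220-431301 on the plus strand, snoZ30 at chrII:2044411-2044505 on the plus strand, snoR58 at chrI:5366223-5366297 on the minus strand and snoU14 at chrII:1308634-1308745 on the plus strand.
snR40: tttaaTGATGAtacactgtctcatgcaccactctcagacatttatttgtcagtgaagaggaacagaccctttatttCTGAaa
snoZ30: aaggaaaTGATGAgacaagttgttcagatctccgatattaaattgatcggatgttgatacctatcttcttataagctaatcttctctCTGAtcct
snoR58: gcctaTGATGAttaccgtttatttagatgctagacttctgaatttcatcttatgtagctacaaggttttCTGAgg
snoU14: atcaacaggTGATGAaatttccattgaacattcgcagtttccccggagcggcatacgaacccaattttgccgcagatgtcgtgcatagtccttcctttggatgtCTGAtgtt

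Box H/ACA genes are represented by snR33 at chrII:2447904-2448048 on the minus strand and snR93 at chrII:3172781-3172923 on the plus strand, with the terminal ACA in capitals. In both of them 3 bases follow the ACA. The all-chromosomes annotation places both genes 6539 bp higher.
snR33: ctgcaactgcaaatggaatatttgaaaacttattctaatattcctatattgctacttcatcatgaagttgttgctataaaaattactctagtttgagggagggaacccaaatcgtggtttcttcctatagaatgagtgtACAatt
snR93: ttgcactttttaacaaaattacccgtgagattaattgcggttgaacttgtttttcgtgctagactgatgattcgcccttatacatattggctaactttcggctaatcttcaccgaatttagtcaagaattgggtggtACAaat

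Members with long exact complements to rRNA, and the 4 pairs of members with paired names, are shown with the longest complementary run in capitals. The longest run, of 17 bases, belongs to snR41 at chrI:1200168-1200253 on the plus strand. Runs of 15 bases follow in 3 genes: snR51b at chrI:1200646-1200729 on the plus strand, snoU24b, and snoR02, which is not printed. The paired names are snoR39a at chrI:1712996-1713071 on the plus strand, snoR39b at chrII:1791743-1791820 on the minus strand, snoU24 at chrI:5369640-5369686 on the minus strand, snoU24b at chrI:2440336-2440418 on the plus strand, snoR69 at chrI:5387559-5387641 on the plus strand, snoR69b at chrI:4154912-4155002 on the plus strand, snoR54 at chrII:1707601-1707681 on the plus strand and snoR54b at chrI:4238306-4238401 on the plus strand. In the sequences of snR41, snR51b, snoR39a and snoR39b the letters ctga follow the capitals directly or after 1 base.
snR41: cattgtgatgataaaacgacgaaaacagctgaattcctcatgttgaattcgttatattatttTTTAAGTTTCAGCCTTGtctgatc
snR51b: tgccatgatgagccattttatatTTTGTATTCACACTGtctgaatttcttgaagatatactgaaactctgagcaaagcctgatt
snoR39a: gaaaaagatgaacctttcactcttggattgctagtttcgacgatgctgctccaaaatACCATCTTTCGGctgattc
snoR39b: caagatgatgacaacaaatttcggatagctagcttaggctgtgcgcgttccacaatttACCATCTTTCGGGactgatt
snoU24: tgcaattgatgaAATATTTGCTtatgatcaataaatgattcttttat
snoU24b: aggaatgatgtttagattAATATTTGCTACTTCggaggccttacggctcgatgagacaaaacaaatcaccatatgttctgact
snoR69: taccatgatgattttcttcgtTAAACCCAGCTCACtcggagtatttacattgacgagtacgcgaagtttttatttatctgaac
snoR69b: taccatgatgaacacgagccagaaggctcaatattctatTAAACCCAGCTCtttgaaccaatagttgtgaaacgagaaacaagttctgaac
snoR54: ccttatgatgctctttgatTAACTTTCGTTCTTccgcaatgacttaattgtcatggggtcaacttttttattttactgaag
snoR54b: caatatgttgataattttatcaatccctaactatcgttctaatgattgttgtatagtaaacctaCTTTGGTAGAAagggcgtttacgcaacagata

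The number of genes differed between the chromosomes. Chromosome I held 31, chromosome II held 18 and chromosome III held 4. Relative to RefSeq chromosome lengths these are 5.56, 3.96 and 1.63 snoRNA genes per Mb. The 8 genes of the clusters described below all lie on chromosome I and are counted singly here. The density of all annotated genes on each chromosome was not computed. All 4 genes on chromosome III, sno12, snR94, snR10 and snR46, were box H/ACA genes by their RefSeq product, against 6 of the 31 on chromosome I and 9 of the 18 on chromosome II. The plus strand carried 35 of the 53 genes, among them all 8 genes of the clusters described below. The share of all annotated genes on that strand was not counted. None of the 53 lay within 20 kb of a chromosome end or of an annotated centromere record. For all annotated genes this count was not made, so it has no background beside it. The nearest to a centromere record was snr62 on chromosome I, 62346 bp away, followed by snoR54 on chromosome II at 62853 bp. Centromeres, chromosome ends and the silent mating-type region of chromosome II are the classic H3K9-methylated domains of this yeast. In RefSeq, 1 member, snR92, lay within 20 kb of the silent genes mat3-Mi and mat3-Mc, with a gap of 11227 bp to the former. The next nearest was snoZ30, 88080 bp from mat3-Mi. The deposited chromosome II positions equal RefSeq at snR92 and are 6539 bp higher at snR5, beyond the mat3 genes. The gap from snR92 to these genes in the deposited annotation was not measured. Whether the mark reaches snR92 was not tested.

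The gene records ranged from 47 to 488 bp, with a median of 95 bp and quartiles of 83 and 167 bp. RefSeq product names assigned box H/ACA to 19 genes and box C/D to 1, snoZ30, and gave no class for 33. The 19 H/ACA genes were 142 to 488 bp long with a median of 168 bp, and the 34 others were 47 to 326 bp long with a median of 84 bp. At a length of 120 bp, chosen after the lengths were seen, the division was nearly complete: all 19 H/ACA genes were longer, and so were 2 of the 34 others. Those 2 were sno16, of 187 bp, and snR30, of 326 bp, whose RefSeq product is U17. The vertebrate snoRNA U17 and budding yeast snR30 are box H/ACA RNAs, a class the RefSeq product name does not state here.

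**Figure D1:**
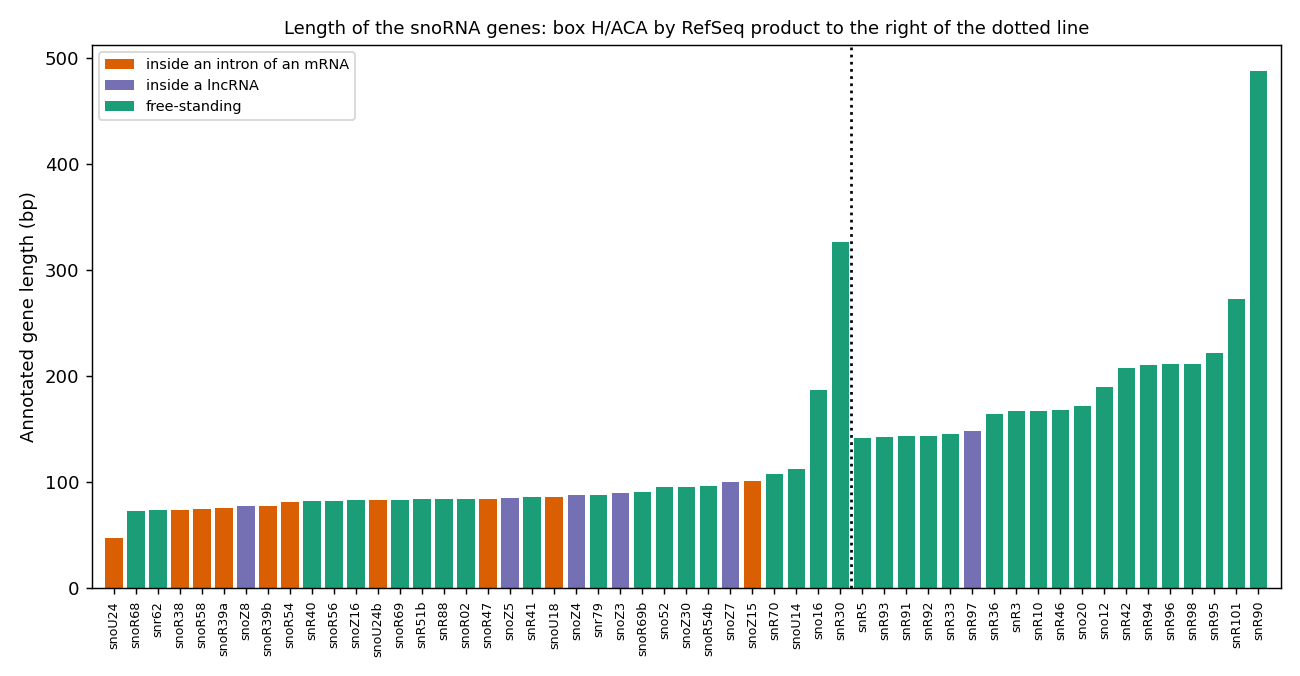
Annotated length in bp of each of the 53 snoRNA genes, 1 bar per gene, coloured by host relation, with the 19 genes whose RefSeq product names box H/ACA to the right of the dotted line. The H/ACA bars start at 142 bp, and to the left of the line only sno16 and snR30 pass 120 bp.

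At the short end stood snoU24 with 47 bp, then snoR68 with 73 bp, and snoR38 and snr62 with 74 bp each. The record of snoU24 was 36 bp shorter than that of snoU24b, the other member named for U24, a guide of methylation in large-subunit rRNA. No CTGA occurred in the 47 bases of snoU24. In the host intron, the first CTGA began after 14 further bases downstream of the annotated end. At the long end stood snR90 with 488 bp, snR30 with 326 bp and snR101 with 273 bp. The snR90 record differed from the other 52 in having 2 exons, of 107 and 195 bp, with an intron of 186 bp between them.

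By host relation on the same strand, 10 genes lay whole inside an intron of an mRNA, 6 lay whole inside a lncRNA, and 37 were free-standing, sharing no base with an mRNA transcript or lncRNA gene of that strand. No gene overlapped an mRNA exon on the same strand. In percent of the 53 genes these are 18.9, 11.3 and 69.8. The 19 H/ACA genes held none of the intronic positions: 18 were free-standing and 1, snR97, lay in a lncRNA. Of the 34 others, 10 were intronic, 5 were in a lncRNA and 19 were free-standing. The longest intronic member was snoZ15, of 101 bp.

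The 10 host genes were all protein-coding, each with 1 snoRNA. Several act in making or using ribosomes. The gene rlp7, for a ribosome biogenesis protein, held snoR39a. The gene rpl701, for a ribosomal protein of the large subunit, held snoR39b, so the 2 members named R39 both lay in introns of genes for proteins of the L7 family. The gene cpc2, for the RACK1 protein of the small subunit, held snoU24b, and SPAC29A4.02c, annotated as elongation factor 1 gamma in the authors' second annotation, held snoR38. Others act elsewhere in the cell. Purine synthesis genes were hosts in 2 cases, ade4 for snoR58 and gua1 for snoR54. The remaining hosts were spt20, of the SAGA transcription complex, for snoU24; pfd1, a subunit of the chaperone prefoldin, for snoZ15; ero11, an oxidase of the endoplasmic reticulum, for snoU18; and fta3, a kinetochore protein gene, for snoR47.

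Of the 10 host introns, 4 lay in a 3′ UTR (spt20, pfd1, ero11 and fta3), 1 in a 5′ UTR (ade4) and 5 between coding exons. The share of all mRNA introns that lie in UTRs was not counted, so these numbers have no background beside them. In 7 of the 10 hosts the intron was the only one of its gene. The host intron was the longest of its gene in 9 of the 10, which is a given for the 7 hosts with only 1 intron.

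The host introns were long for this genome. They measured 157 to 441 bp with a median of 238 bp, whereas the 5212 annotated mRNA introns on chromosomes I to III had a median of 56 bp. Of those 5212 introns, 542, or 10.4%, were at least as long as the shortest host intron, that of fta3. A host intron must be longer than the snoRNA it holds, and the shortest intronic snoRNA, of 47 bp, is itself close to the median intron. The longest host intron was that of rpl701, where 266 bp precede snoR39b and 97 bp follow it. In the shortest, that of fta3, 24 bp precede snoR47 and 49 bp follow it.

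The 5′ side varied more than the 3′ side. From the 5′ splice site to the snoRNA the distance was 24 bp in ero11 and fta3, 41 to 56 bp in spt20, ade4, pfd1 and rlp7, and 82, 98, 169 and 266 bp in cpc2, SPAC29A4.02c, gua1 and rpl701. From the snoRNA to the 3′ splice site it was 79 to 97 bp in 6 introns: pfd1, spt20, gua1, rlp7, cpc2 and rpl701. The others had 49 bp (fta3), 57 bp (ero11), 121 bp (SPAC29A4.02c) and 258 bp (ade4). The intron of ade4 alone left more than 121 bp on that side.

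**Figure D2:**
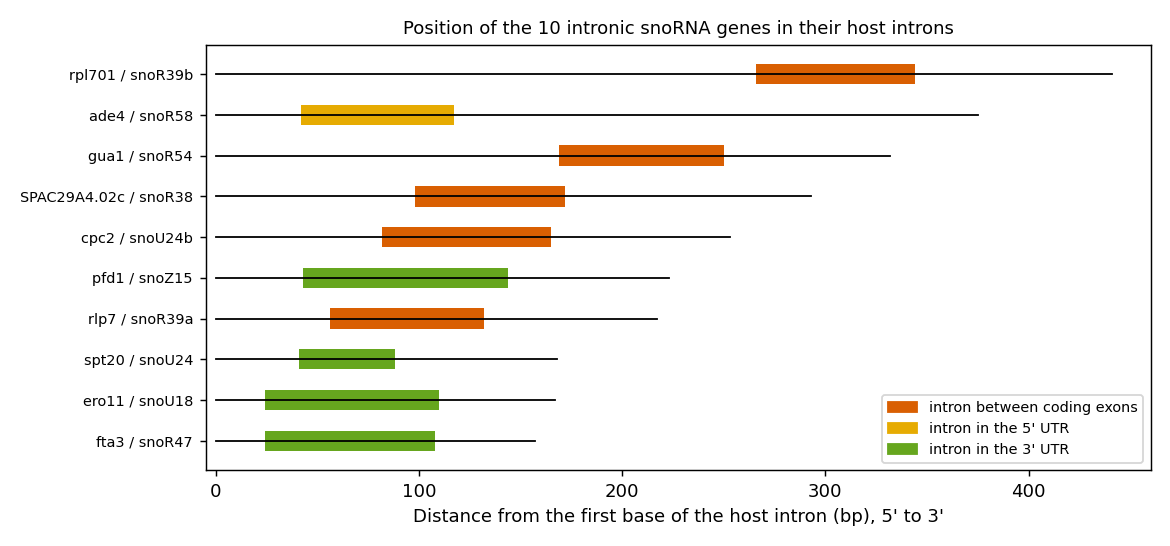
Position of the snoRNA in each of the 10 host introns, in bp from the first base of the intron, 5′ to 3′. Lines are introns and boxes are snoRNAs, coloured by where the intron lies in the host transcript, and the introns run from 157 bp (fta3) to 441 bp (rpl701).

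A pair of lncRNAs held the 6 members of the second class. SPNCRNA.659, named snoZ and 1901 bp long, held snoZ8, snoZ7, snoZ5, snoZ4 and snoZ3, with the first of them beginning 85 bp from its 5′ end. SPNCRNA.617, of 4237 bp, held snR97 at 472 bp from its 5′ end. These 5 snoZ genes also formed the larger of the 2 clusters, which were built by joining snoRNA genes at most 1000 bp apart. The snoZ cluster spanned 988 bp on the plus strand of chromosome I, from 526726 to 527713, with gaps of 111 to 154 bp between neighbours. The other cluster, snR41, snR70 and snR51b, spanned 562 bp on the same strand of that chromosome, from 1200168 to 1200729, with gaps of 140 and 144 bp. The snoRNAs themselves made up 44.6% of the first span and 49.5% of the second.

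**Figure D3:**
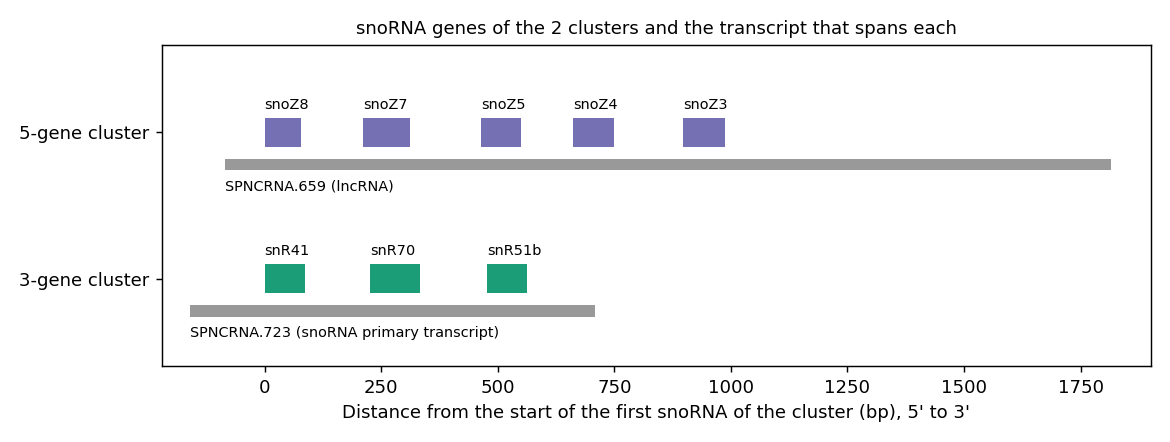
The 2 snoRNA gene clusters and the longer transcript record around each, in bp from the first base of the first snoRNA, 5′ to 3′. Coloured boxes are snoRNA genes and grey bars the SPNCRNA records, which extend past the last snoRNA in both clusters.

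No other members were close to one another. Outside the clusters the smallest gaps were 3342 bp, between snoR58 and snoU24, and 4267 bp, between snoR38 and snoR56. The median gap from one of these 45 genes to its nearest snoRNA gene was 83303 bp. With gaps of 500 or 2000 bp in place of 1000 bp the number of clustered genes was also 8.

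The free-standing class was not uniform. In a count added after the host records were seen, 9 of the 37 lay in or overlapped 7 longer records that RefSeq calls a snoRNA primary transcript, a type that is neither mRNA nor lncRNA. SPNCRNA.723, of 868 bp, held the whole cluster of snR41, snR70 and snR51b. SPNCRNA.1483, of 1152 bp, held snoZ30, and SPNCRNA.1650, of 842 bp, held snoR68. The H/ACA genes snR98, snR3 and snR46 lay in SPNCRNA.814, of 487 bp, SPNCRNA.1394, of 429 bp, and SPNCRNA.7474, of 448 bp. The seventh record, SPNCRNA.901, of 281 bp, shared 136 of the 144 bp of snR91 and did not contain it whole. With such records counted as hosts, both clusters lay inside 1 longer transcript each.

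On the opposite strand 18 of the 53 genes met an mRNA exon or a lncRNA. The same share was not counted for all annotated genes or for windows of matched length. An mRNA exon was met by 8, 5 of them H/ACA genes. Untranslated regions accounted for 7 of these 8. The 3′ UTRs of rad8, taf9, alg3 and gpi12 spanned the whole of snR97, sno52, snoR02 and snr79, and those of not3 and psd1 covered 106 bp of snR90 and 86 bp of snR36. The 5′ UTR of tim17, a mitochondrial import gene, covered 148 of the 211 bp of snR96. The eighth was sno20, whose 172 bp all lay opposite coding sequence of SPBC1921.04c. Antisense lncRNAs contained another 8 members whole, snoZ16, snR101, snoR69, snoZ30, snR92, sno16, snoR47 and snR10, and covered parts of 2, snR51b and snoR39a. Within the shared bases, reads counted without regard to strand could not tell a member from its partner.

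Of the 37 free-standing genes, 22 had no such partner on either strand, and 15 of the 37 also lay in no longer snoRNA-type record. An mRNA gene of either strand was within 1000 bp of 36 of the 37, the exception being snr62, at 1027 bp from ppc89. The median distance was 147 bp, with the 7 genes opposite an mRNA exon counted at 0 bp. No such share or distance was counted for other genes or positions, so these values have no background beside them. The closest without overlap were snR30, 16 bp from pdi4, and snR33, 43 bp from gfa1.

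As a comparison, the 171 tRNA genes of these chromosomes, classed in the same way, were all free-standing, with a median length of 73 bp. Clusters by the same gap held 63 of the 171, or 36.8%, against 15.1% of the snoRNA genes, and 24 of the 171, or 14.0%, met an mRNA exon or lncRNA on the opposite strand, against 34.0%. An mRNA exon was met on the opposite strand by 1 tRNA gene and by 8 snoRNA genes. The 7 small nuclear RNA genes, with a median length of 144 bp, were classed in the same way. Of these, 1 was intronic and 6 were free-standing, and 0 lay in clusters. An mRNA exon or lncRNA on the opposite strand was met by 3 of the 7, or 42.9%, and an mRNA exon by 0. Intronic positions and a share of such partners above that of tRNA genes were thus not particular to snoRNA genes, though 7 genes are few. The sets differ in length, and no test of these differences was made.

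The C and D letters were searched first. TGATGA beginning in the first 20 bases together with CTGA ending in the last 20 was found in 18 of the 53 genes, none of them an H/ACA gene. Among all windows of 95 bases, the median length of the set, 0.0672% carried both. The 18 included snR40, snoZ30, snoR58 and snoU14, whose boxes are marked above. CTGA alone was present at the end of 29 of the 34 genes not named H/ACA and of 2 of the 19 H/ACA genes, snR96 and snR92, against 5.57% of windows of 84 bases and 5.51% of windows of 168 bases. TGATGA alone was present at the start of 19 of the 34 and 0 of the 19, against 1% and 1.01% of these windows. Allowing 1 mismatch in TGATGA, a choice made after the sequences were seen, raised the count with both boxes to 28, against 0.767% of windows. Among the 34, the 5 genes without a terminal CTGA were snoR02, snR30, snoR54b, snoU24 and sno16.

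ACANNN, meaning ACA and any 3 further bases, with its last base among the last 3 bases of the gene record, was found in 14 genes, against 5.07% of windows of 95 bases. This leaves 3 to 5 bases after the ACA. They were 12 of the 19 H/ACA genes, among them snR33 and snR93, and also snR30 and snoR54b. Exactly 3 bases followed the ACA in 10 of the 14, 9 of them H/ACA genes and the other snR30, against 1.7% of windows. In snoR54b, snR3, snR42 and snR94, 4 bases followed it. No gene carried the pair of C and D letters together with the terminal ACA, though snR92 had CTGA and ACA in its last bases. Neither the pair nor the terminal ACA was found in 21 genes, and 12 of these 21 had the terminal CTGA alone. The H/ACA genes without the terminal ACA were snR96, snR98, snR101, snR90, snR5, sno20 and snR10. In snR98 and snR90 an ACA did stand at the end, followed by 2 and 0 bases, and in snR101 by 6. A missing match says only that the letters did not occur at the spacing searched. Searching for an ACANNN that ends in the last 10 bases gave 17 genes, against 15.6% of windows.

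Exact complements to 18S, 5.8S or 28S rRNA were searched without G-U pairs, using RefSeq rRNA genes of 1842, 165 and 3485 bases. A run of at least 11 bases was present in 34 genes, against 11.9% of windows of 95 bases outside rRNA genes. It was present in 27 of the 34 genes not named H/ACA, against 10.4% of windows of 84 bases, and in 7 of the 19 H/ACA genes, against 20.9% of windows of 168 bases, each window having the median length of its group. Guide sequences of H/ACA RNAs are short and split in 2 arms, so this search does not look for them. Runs of 13 bases or more, a length chosen after the runs were seen, occurred in 16 of the 34 and in 1 of the 19, snR96.

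**Figure D4:**
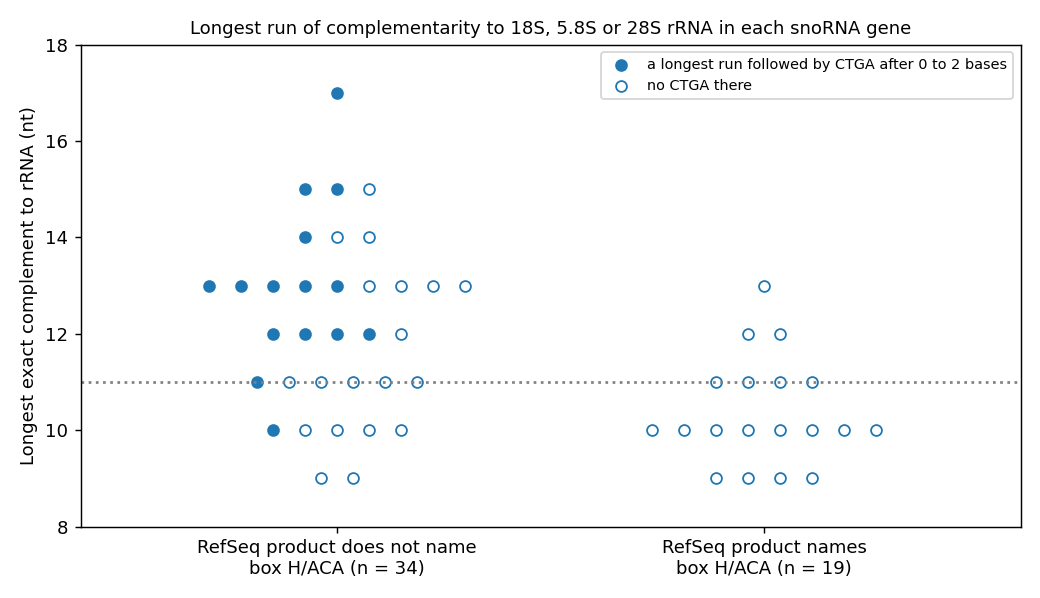
Longest exact complement to rRNA in nt for each of the 53 snoRNA genes, 1 point per gene, split by whether the RefSeq product names box H/ACA. Filled points have a longest run followed by CTGA after 0 to 2 bases, the dotted line marks 11 nt, and the highest point is snR41 with 17 nt.

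In 14 of the 34 genes not named H/ACA, and in 0 of the 19 H/ACA genes, a run of at least 11 bases was followed by CTGA after 0 to 2 bases. Among windows of 84 bases 0.1% had such a run. The spacing was chosen after the sequences were seen, from the known layout of box C/D guides. For each of the 14, the rRNA base opposite the fifth snoRNA base upstream of that CTGA was read off, counting rRNA bases from 1 at the annotated 5′ end. It is a position in the sequence and not a measured methylation.

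The run of snR41 was the longest of the set, 17 bases, and paired with 18S bases 1139 to 1155, with base 1142 opposite the fifth position. Its cluster neighbour snR51b paired over 15 bases with 28S bases 2821 to 2835, with base 2824 opposite. The third gene of that cluster, snR70, had no run above 9 bases. The stretches of rRNA that these 2 runs and the runs of snoR39a and snoR39b pair with are shown 5′ to 3′, with the base opposite the fifth position in capitals.
18S opposite snR41: caaGgctgaaacttaaa
28S opposite snR51b: cagTgtgaatacaaa
28S opposite snoR39a: ccgaAagatggt
28S opposite snoR39b: cccGaaagatggt

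The other 18S positions were base 28 for snoZ4 and base 1248 for snoR02, the latter from a run of 15 bases. The other 28S positions were bases 674 for snoU18, 688 for snoR58, 908 for snoZ15, 1943 for snr62, 2305 for snR88, 2376 for snoZ5, 2509 for snoZ8 and 2735 for snoR68. Within the snoZ cluster, 3 of the 5 genes thus had a run next to CTGA, snoZ8 and snoZ5 on 28S and snoZ4 on 18S. The runs of snoZ7, of 11 bases on 18S, and snoZ3, of 13 bases on 28S, were not followed by CTGA. For snoZ8 and snR88 another run of equal length occurs in the gene, so their longest run is not unique.

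Members with paired names differed in how alike they were. Over all 1378 pairs of members, aligned end to end, the median identity was 45.3%. The pair snoR39a and snoR39b was the most alike of all, at 66.7%. Both pair with nearly the same stretch of 28S, bases 835 to 846 and 834 to 846, but CTGA follows the run directly in snoR39a and after 1 base in snoR39b. The bases opposite the fifth position are therefore 839 for snoR39a and 837 for snoR39b, 2 bases apart.

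The other 3 pairs fell within the range of unpaired names, whose highest identity was 61.7%. The snoR69 pair had 54.5% identity and shared a target stretch, with runs to 28S bases 3038 to 3051 in snoR69 and 3040 to 3051 in snoR69b. The snoU24 pair had 48.2% identity, and the runs, to bases 1483 to 1492 and 1478 to 1492 of 28S, end at the same rRNA base. The snoR54 pair had 52.9% identity and did not share a target by this search: the longest run of snoR54, in gua1, was to 18S bases 985 to 998, and that of the free-standing snoR54b to 5.8S bases 133 to 143.

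The genes for the proteins that work with snoRNAs were looked up from lists of their own. All 4 core proteins of box C/D particles (fib1, the methyltransferase, nop56, nop58 and snu13), all 4 of box H/ACA particles (cbf5, the pseudouridine synthase, gar1, nhp2 and nop10) and all 11 assembly and processing factors were present. The last list comprised rvb1, rvb2, shq1, naf1, bcd1, hit1, pac1, dhp1, rrp6, tgs1 and dbr1. Introns were annotated in 2, 2 and 7 of them, from 1 to 4 per gene, and none of these introns held a member. The closest to a member was cbf5, which ends 1942 bp from snoR38.

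The authors' second annotation, called tetarr6, carried almost none of these genes. Of the 53 identifiers it held 1, snR90, as a gene and intron record of 156 bp that covers 30 bp less than the snR90 intron of the all-chromosomes annotation and none of its exons. The hosts were mostly there: all 10 mRNA hosts, both lncRNA hosts and 6 of the 7 longer snoRNA-type records. For the intronic snoR39a, snoR58 and snoR47, tetarr6 had the host gene but no same-strand intron record at the member. At 30 of the 49 member positions on chromosomes I and II it had a gene record on the same strand, and at 12 of the 49 none on either strand. At 5 positions the same-strand record has an identifier that the all-chromosomes annotation lacks: SPNCRNA.727 at snoZ16, SPAC4H3.12c at snr62 and SPNCRNA.1038 at snR90, each containing the member whole, and SPNCRNA.906 at snR30 and SPNCRNA.1436 at snR95, each in part. The free-standing sno16 also met a same-strand record in tetarr6, SPNCRNA.1597, which is not among these 5. A signal summed over the genes of that annotation would have no record of its own for 52 of the 53 snoRNAs.

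The identifier rule leaves out 13 other genes of the all-chromosomes annotation whose transcript is of type snoRNA. They include 2 U3 genes, snu3 and snu32, of 256 and 255 bp, as well as snR191, of 128 bp, snoR61, of 653 bp, and the 7 longer records above. Positions of members in the all-chromosomes annotation equalled those in RefSeq for 41 genes, were 6539 bp higher for 8 genes on chromosome II and differed by -1807 bp for the 4 genes on chromosome III.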

How the data were processed

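The labels describe chromatin immunoprecipitation and input libraries, for which the submitters' processing notes name Trimmomatic and BWA; versions, settings and genome build are not stated there. The 2 deposited files used are annotations, and the authors' start and end columns give positions in bp. Per the file headers, the sources are PomBase for the all-chromosomes file and Geneious for tetarr6. The score field is empty in 58359 and 40352 records, so depth is unknown and nothing could be tested. Members and lists were chosen with earlier results of these data known.

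Gene lengths, gaps and introns were computed in Python 3.11.15. A gene was intronic where it lay whole between neighbouring exons of an mRNA on its strand. Sequences came from RefSeq (ASM294v3), which may not be the authors' build, by identifier. Letters were compared with windows every 100 bases on both strands. Pairs were aligned globally with Biopython 1.88 (match 1, mismatch -1, gap opening -2, extension -1), and plots used matplotlib 3.10.9. On simulated data 200 of 200 host classes and 200 of 200 rRNA positions were recovered. The genes described in full were the intronic, clustered, shortest, longest and antisense members. The 120 bp and 13-base lengths, the spacing to CTGA, the longer snoRNA-type hosts, the pairs of names, the bases downstream of snoU24, the exact spacing of ACA, the distance to mat3 genes and the tetarr6-only records were chosen after the data were seen.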

Additional observations from a re-analysis of the deposited data

How the results depend on the processing

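Over 10 results, 20 alternatives gave a count within 1.5 times the main one or an unchanged median, and 10 did not. With the tetarr6 annotation the set fell to 1 gene of 156 bp, 0 genes were clustered, and 1 lay inside a lncRNA. With both strands considered, 14 genes lay inside a lncRNA, 8 overlapped an mRNA exon and 22 were free-standing. Alternatives added after seeing the data gave 14 genes inside a lncRNA, once longer snoRNA-type records counted as lncRNAs, 28 genes with both C and D letters, once 1 mismatch was allowed, and 14 genes with an rRNA run followed by CTGA. The tetarr6 changes reflect which records that annotation holds. The other alternatives widen or narrow a definition, which fixes the direction of each change and not its amount. The number of intronic genes was 10 under both alternatives run, either strand and RefSeq. The tetarr6 annotation was not among these alternatives, and it had no same-strand intron record at snoR39a, snoR58 and snoR47. No paired analysis was possible because no file used here holds a value per library, and leaving out replicates was not run for the same reason. The precision of every count depends on the annotation, and depth has no part in it.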
